A study of Homo sapiens with 12 samples.

Results

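The 8 genes described here encode the enzymes of the hexosamine pathway and of O-GlcNAc cycling: GFPT1, GFPT2, GNPNAT1, PGM3, UAP1, GNPDA1, OGT and OGA. They were taken by name from the 57820 genes counted, and all 8 passed the filter on low counts, which left 19200 genes. The set was chosen by the levels of OGT and UAP1, which had been seen to be higher and lower, respectively, in HKDC1 knockout than in control libraries. For these 8 genes the difference between knockout and control is therefore a description with no test, and tests are given for the other comparisons.

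The libraries came from PLC/PRF/5, an established human hepatoma cell line. Control cells gave 4 libraries, cells with a knockout of HKDC1 (KO) gave 4, and knockout cells with HKDC1 restored (KO_RES, called rescue) gave 4. HKDC1 is a hexokinase family member, and hexokinases make the glucose-6-phosphate from which glycolysis and the hexosamine pathway both draw. Knockout and rescue each came as 2 lines with 2 libraries per line, and a library is named by line and number, so that KO 1_2 is line 1, number 2. No age, treatment or oxygen level is given for any group, although the series title names hypoxia. Whether a line is 1 clone, how it was made and whether the libraries of a group came from separate cultures are not stated either, so p-values measure the spread between these libraries, which may be technical.

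In the hexosamine pathway, GFPT1 or GFPT2 joins fructose-6-phosphate with the amide nitrogen of glutamine to make glucosamine-6-phosphate, the committed step. GNPNAT1 acetylates the product, PGM3 moves its phosphate and UAP1 couples it to UTP, giving UDP-GlcNAc, while GNPDA1 runs glucosamine-6-phosphate back to fructose-6-phosphate. OGT then transfers GlcNAc from UDP-GlcNAc to serine and threonine residues of nuclear and cytoplasmic proteins, OGA removes it, and the cycle is known for its sensitivity to nutrient supply in liver and other tissues.

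Of the 8 genes, OGT, UAP1 and GNPDA1 are those whose knockout and control libraries did not overlap, as was so for 16.8% of all genes tested, and their promoter sequences are shown so that the regions from which the RNAs start can be compared. They are RefSeq promoter windows on build GRCh38.p14, which is not the GRCh37 build on which reads were counted. All 8 genes matched an entry, and UAP1 and PGM3 had several start sites. Printed 5′ to 3′ in the direction of the gene are bases -250 to -26 from the annotated start, for OGT on the plus strand at chrX:71532854-71533078, for GNPDA1 on the minus strand at chr5:142013053-142013277 and for the first UAP1 start on the plus strand at chr1:162561281-162561505. Each stretch lies upstream of the first exon.
OGT: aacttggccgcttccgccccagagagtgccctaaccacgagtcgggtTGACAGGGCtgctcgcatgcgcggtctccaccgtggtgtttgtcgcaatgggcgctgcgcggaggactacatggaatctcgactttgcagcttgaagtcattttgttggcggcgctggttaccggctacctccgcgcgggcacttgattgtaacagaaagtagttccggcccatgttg
GNPDA1: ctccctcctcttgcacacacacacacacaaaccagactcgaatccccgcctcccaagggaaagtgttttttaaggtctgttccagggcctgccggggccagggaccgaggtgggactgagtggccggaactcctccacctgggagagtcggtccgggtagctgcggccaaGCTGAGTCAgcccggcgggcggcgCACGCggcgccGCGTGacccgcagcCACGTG
UAP1: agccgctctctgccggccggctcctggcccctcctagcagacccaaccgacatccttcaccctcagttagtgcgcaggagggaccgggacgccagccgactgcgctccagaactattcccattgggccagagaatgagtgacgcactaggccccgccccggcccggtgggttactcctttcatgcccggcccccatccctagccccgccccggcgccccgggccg
Capitals mark matches, on either strand, to 7 motifs searched over each whole window of 300 bases.

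The GNPDA1 stretch held the E-box CACGTG, which is in 7.26% of 35116 RefSeq promoters of the same length. That E-box also contains ACGTG on both strands, a core of the hypoxia response element found in 21.4% of promoters. GCGTG, the other core, occurred in 2 places and is in 36.5% of promoters. TGACNNNGC, the antioxidant element, was present once in GNPDA1 and once in OGT, at -203, and is in 13.3% of promoters. The OGT stretch held none of the other 6 motifs, and no capitals stand in the UAP1 stretch. The whole window of that UAP1 start did hold ACGTG once, at 20, past the printed bases. The windows of the other UAP1 starts also held ACGTG, and the last of them GCGTG in 2 places. Among the other members, the GFPT1 window held ACGTG once and GCGTG in 3 places. The GNPNAT1 window and a window of PGM3 held both cores, the GFPT2 window held GCGTG, and the OGA window held none of the motifs. TGACGTGG, which XBP1 and ATF6 bind, the endoplasmic reticulum stress element, searched in its long form, and TGATGNAA, an ATF4 element, were in 0 of the members' windows, against 0.729%, 0.0769% and 3.62% of all promoters. These matches describe letters and not binding.

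Each library held between 36075411 and 71853616 counts over genes, and GFPT2, the lowest member, had 92 to 291 counts per library. HKDC1 itself checks the labels only in part. Its level in controls was 123 to 183 CPM (the count as a share of the TMM-scaled library), and the KO 1_1 and KO 1_2 libraries stood at 153 and 147, within that range. KO 2_1 and KO 2_2 stood at 91.1 and 49.2, and rescue libraries at 506 to 1545. For line 1 the label can thus not be checked from the mRNA, and "KO line 1" below means the libraries labelled so. The genotype field of the labels also gives 4 of the 8 knockout and rescue libraries the other group than their titles, and titles were followed. KO_RES 1_1 and KO_RES 2_1, which the field calls knockout, had HKDC1 at 1236 and 506 CPM. KO 1_2 and KO 2_2, which it calls rescue, had 147 and 49.2 CPM. For the division into knockout and rescue, HKDC1 mRNA thus goes with the titles and not with the field. Controls 1 and 2 stood apart from controls 3 and 4, with ALB, the albumin gene, at 908 and 822 against 23.0 and 28.2 CPM, and TTR, APOA1, APOA2, FGB, GPC3 and SERPINA1 were also higher in controls 1 and 2. AFP was lower there, at 16.9 and 14.7 against 36.9 and 40.7 CPM, and HNF4A was at 210.2 and 189.5 against 216 and 221 CPM. All 9 of these hepatoma and hepatocyte markers exceeded 3 counts in at least some libraries, and their summed level was 2158 to 11420 CPM in controls, 1238 to 1878 in knockout and 1279 to 2682 in rescue libraries. Knockout and control libraries did not overlap for FGB, a fibrinogen chain (116 to 506 against 1371 to 6170 CPM). The same held for TTR (0.0936 to 1.03 against 1.59 to 34.1 CPM) and APOA1 (4.19 to 9.24 against 10.3 to 223 CPM). The other hepatoma and hepatocyte markers overlapped. CDH1 (20.4 to 46.0 against 71.3 to 98.8 CPM) and EPCAM (14.9 to 37.8 against 1.31 to 4.62 CPM) did not overlap either. KRT8 and KRT18, the other epithelial markers, did. In contrast, the summed level of 5 blood markers was 0.187 to 0.850 CPM, with CD3E and HBB at 3 counts or fewer throughout, and that of 5 fibroblast markers was 3.51 to 10.7 CPM, with COL1A2 at 3 counts or fewer throughout. The part of these differences in the results was not tested. These are bulk libraries, in which fewer cells of a kind and less RNA per cell cannot be told apart.

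Levels of different genes were compared per length of exon sequence, as CPM per kilobase over all 12 libraries. GFPT1 was highest, at 47.9 ± 9.0 (SD, n = 12 libraries), followed by PGM3 at 42.4 ± 5.37 and GNPNAT1 at 40.1 ± 5.49, and these 3 did not differ beyond their spread. UAP1 at 25.0 ± 5.79, OGT at 22.0 ± 6.85 and GNPDA1 at 20.7 ± 7.05 came next, also within each other's spread. OGA, at 16.9 ± 1.99, was within the spread of OGT and GNPDA1. The spread over the 12 libraries includes differences between the groups. GFPT2, the paralog of GFPT1, was at 0.620 ± 0.175 CPM per kilobase, and the ratio of GFPT1 to GFPT2 counts was between 102 and 206 in every library. The order of these 4 differed between groups. In controls UAP1 was at 31.5 ± 3.96 and above OGT at 13.8 ± 1.38 and GNPDA1 at 13.9 ± 2.32 CPM per kilobase (n = 4 libraries). OGA had a mean of 17.1 ± 1.73 there, between UAP1 and the others. In knockout libraries UAP1 was at 21.1 ± 3.08, below OGT at 25.7 ± 4.0 and GNPDA1 at 26.7 ± 5.54, although these 3 overlapped. OGA had the lowest mean of the 4 in knockout, at 16.9 ± 2.55.

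**Figure D1:**
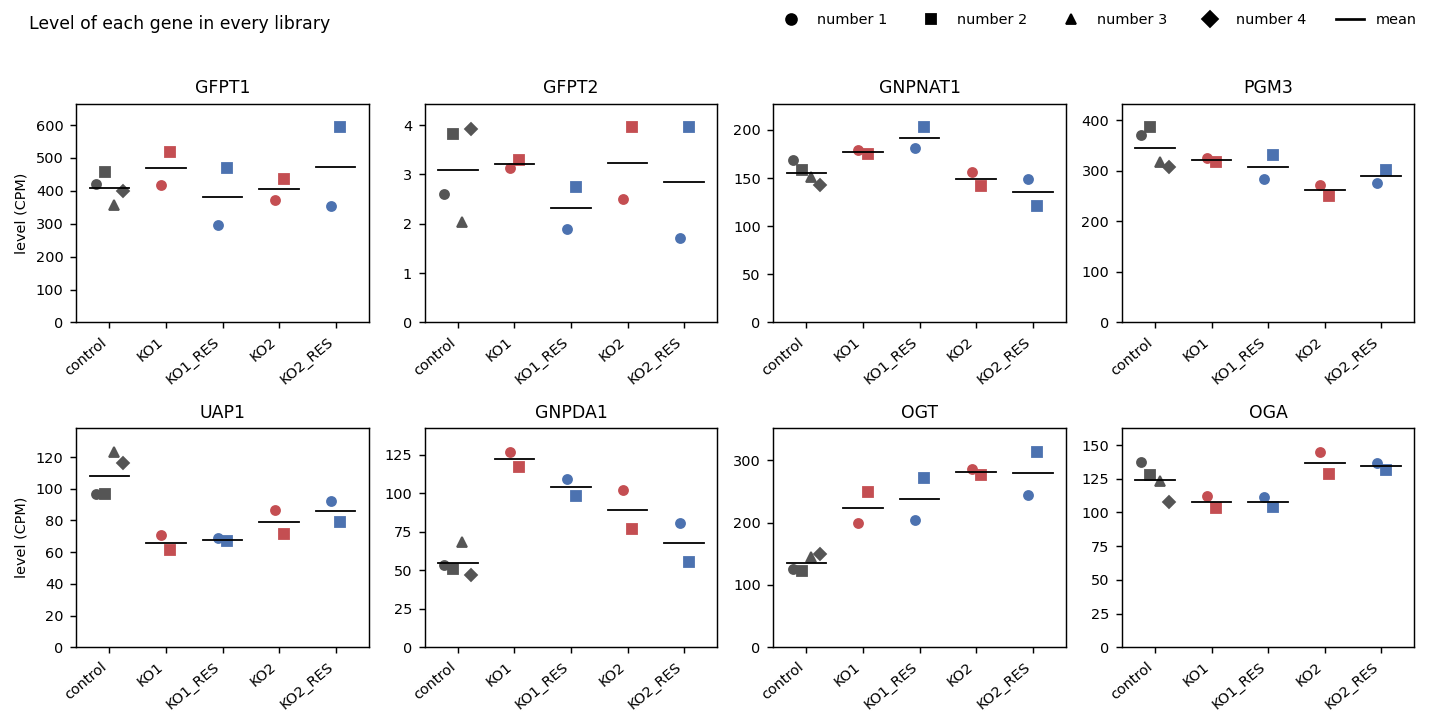
Level in CPM of each of the 8 genes in all 12 libraries (y axis, from 0, 1 panel per gene), by control, knockout and rescue line (x axis), with marker shape for the library number and a black line for the mean. OGT and GNPDA1 lie above the 4 controls in all 4 knockout libraries and UAP1 below them. In the rescue libraries OGT stays above and UAP1 below all controls.

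Knockout and control libraries were compared first, as a description. OGT, the only enzyme that adds GlcNAc to nuclear and cytoplasmic proteins (ENSG00000147162.9, chromosome X), had 126, 123, 144 and 150.3 CPM in controls 1 to 4. In KO 1_1, 1_2, 2_1 and 2_2 it was at 199, 249.3, 286 and 277 CPM. Every knockout library thus lay above every control, and the mean was 253 ± 39.3 against 136 ± 13.6 CPM (SD, n = 4 libraries each), a ratio of 1.86. The log2 difference was 0.89 ± 0.15 (SE), with 0.72 in line 1 and 1.05 in line 2.

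UAP1, which makes UDP-GlcNAc in the last step of the pathway (chromosome 1), moved the other way. Controls 1 to 4 were at 96.8, 96.8, 123 and 116 CPM, and KO 1_1, 1_2, 2_1 and 2_2 at 70.8, 61.1, 86.7 and 71.2 CPM. The groups did not overlap, the mean being 72.5 ± 10.6 against 108 ± 13.6 CPM (SD, n = 4 libraries each), or 0.669 of the control level. The log2 difference was -0.58 ± 0.14 (SE), with -0.72 in line 1 and -0.46 in line 2.

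GNPDA1, the deaminase that returns glucosamine-6-phosphate to glycolysis (chromosome 5), had 53.7, 50.9, 68.1 and 47.0 CPM in controls 1 to 4. The knockout libraries had 127 and 117 CPM in line 1 and 102 and 76.5 CPM in line 2. All 4 knockout libraries exceeded all controls, with a mean of 106 ± 21.9 against 54.9 ± 9.18 CPM (SD, n = 4 libraries each), a ratio of 1.92. The log2 difference was 0.94 ± 0.22 (SE), with 1.15 in line 1 and 0.70 in line 2.

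The other 5 members were nearer to control. PGM3, the phosphoacetylglucosamine mutase, was at 308 to 386 CPM in controls and 251 to 324 CPM in knockout libraries, a log2 difference of -0.25 ± 0.12 (SE), and the ranges overlapped. GFPT1 had a mean of 408 ± 41.3 CPM in controls against 437 ± 60.7 CPM in knockout libraries, GNPNAT1 of 155 ± 10.9 and 163 ± 17.5 CPM, and OGA of 124 ± 12.5 and 122 ± 18.5 CPM (SD, n = 4 libraries each). GFPT2 was at 2.04 to 3.92 CPM in controls and 2.49 to 3.95 CPM in knockout libraries. Over all genes tested, 6.28% were called at an adjusted p under 0.05 in this comparison and 16.8% had groups that did not overlap. Among the members these were 3 of 8 by either measure, from which nothing is read because the comparison chose 2 of them.

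OGT and OGA act in opposite directions on the same proteins, and the ratio of their counts was 0.915 to 1.40 in controls, 1.77 to 2.42 in knockout libraries and 1.78 to 2.61 in rescue libraries. The ratio of OGT to UAP1 counts varied little among controls, from 1.17 to 1.30, although both genes were lower in controls 1 and 2 than in controls 3 and 4. It was 2.81 to 4.08 in knockout and 2.65 to 4.05 in rescue libraries. Within a library such ratios do not depend on its scaling. OGT was chosen as higher in knockout and UAP1 as lower, so the direction of their ratio follows from that choice and adds no support.

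Rescue was compared with knockout to ask whether putting HKDC1 back moved these genes. With edgeR's quasi-likelihood test none of the 8 members was called, and 0% of the 19200 genes were, while 473 genes had an unadjusted p under 0.05 and DESeq2 called 6 genes, no member among them. HKDC1 itself, at 506 to 1545 CPM in rescue and 49.2 to 153 CPM in knockout libraries, was tested and not called by edgeR either. This fit could thus miss a large change, and its lack of calls does not show that the members stayed unchanged. OGT was at 204, 271, 244 and 313 CPM in KO_RES 1_1, 1_2, 2_1 and 2_2, with all 4 rescue libraries above every control. UAP1 was at 68.7, 66.9, 92.3 and 79.1 CPM, with all 4 below every control. GNPDA1 was at 109, 98.3, 80.5 and 55.2 CPM, and KO_RES 2_2 was within the range of the controls. No member had rescue and knockout libraries without overlap, which 1.67% of genes had.

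Knockout and rescue libraries with the same line and number were more alike than others, so the comparison was also fitted with each such pair as a block. In that fit 8 of 18293 genes (0.0437%) were called, and again none of the members. The log2 difference of OGT was 0.03 (95% interval -0.15 to 0.22) and that of UAP1 0.09 (95% interval -0.06 to 0.24), against distances from control to knockout of 0.89 and -0.58. For OGA the difference was -0.01 (95% interval -0.15 to 0.13), and for PGM3 0.05 (95% interval -0.15 to 0.24). The intervals were wider for GFPT1, with -0.07 (95% interval -0.38 to 0.25), and for GFPT2, with -0.37 (95% interval -0.77 to 0.03).

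GNPDA1 was the member that was lower in rescue than in knockout in all 4 pairs, with changes of -13.9%, -16.0%, -21.1% and -27.8%. Of all genes tested, 12.8% were lower in every pair and 10.9% higher in every pair. The log2 difference was -0.30 ± 0.22 (SE, edgeR adjusted p = 1) without the block. With the pair block it was -0.31 ± 0.07 (SE, 95% interval -0.48 to -0.15), with an unadjusted p of 0.00219 and an adjusted p of 0.157 in edgeR. It did not pass the threshold in either fit. Each pair's log2 difference was smaller in size than the 0.94 between all knockout libraries and control, and in line 1 both rescue libraries still exceeded all controls. In line 2, KO_RES 2_1 did too, at 80.5 CPM. KO_RES 2_2 did not, at 55.2 CPM against 76.5 CPM in KO 2_2 and a control mean of 54.9 CPM.

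**Figure D2:**
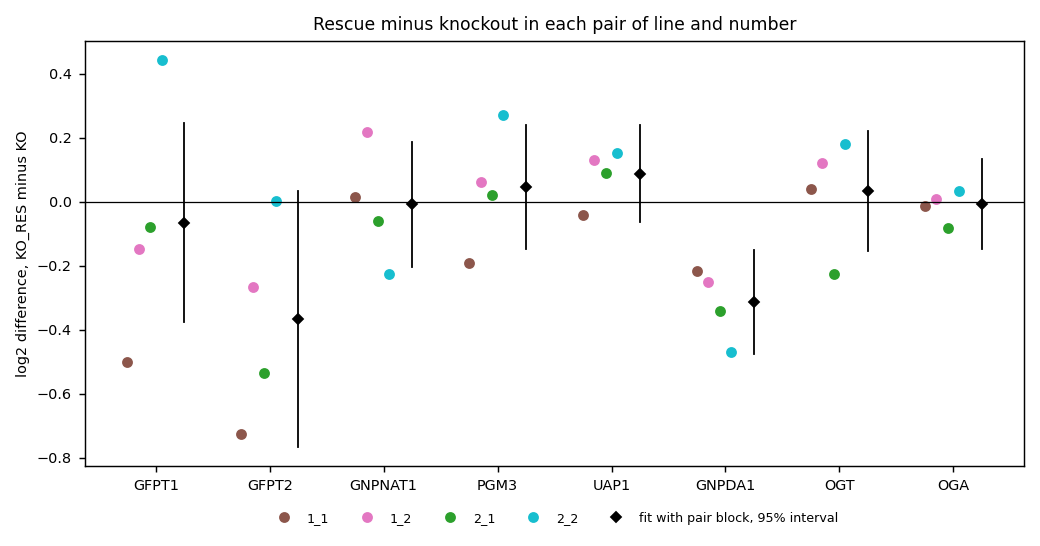
Log2 difference of CPM, rescue minus knockout (y axis), for each of the 8 genes (x axis) in the 4 pairs of equal line and number (coloured points), with the estimate of the fit with a pair block and its 95% interval (black). GNPDA1 lies below 0 in all 4 pairs, from -0.22 to -0.47, and the points of OGT, UAP1 and OGA lie on both sides of 0.

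Within each line, rescue against knockout rested on 2 libraries per arm. GNPDA1 was at -0.23 in line 1 and -0.40 in line 2 on the log2 scale. No member was called in line 1, where 0.195% of 20559 genes were, or in line 2, where 0.00486% were. GNPNAT1, the acetyltransferase, was higher in rescue in both pairs of line 1, by 1.01% and 16.2%, and lower in both pairs of line 2, with changes of -4.11% and -14.6%. The test of the difference between the lines' rescue effects gave -0.26 ± 0.20 on the log2 scale (SE, edgeR adjusted p = 0.9999) for GNPNAT1 and 0.51 ± 0.37 (SE, edgeR adjusted p = 0.9999) for GFPT1. In that test 0% of 20559 genes were called by edgeR, while 598 genes had an unadjusted p under 0.05 and DESeq2 called 33, no member among them.

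Rescue libraries were also compared with control. That comparison shares its controls with the one that chose OGT and UAP1, and its cells belong to the same lines, so its values are not independent of the choice. OGT was higher in rescue, with a mean of 258 ± 45.9 against 136 ± 13.6 CPM (SD, n = 4 libraries each) and a log2 difference of 0.93 ± 0.15 (SE, edgeR adjusted p = 0.00654). It was the 1 member of 8 called, where 5.47% of all genes were. UAP1 was at 76.8 ± 11.7 against 108 ± 13.6 CPM (SD, n = 4 libraries each), a log2 difference of -0.50 ± 0.14 (SE, edgeR adjusted p = 0.0644), and did not pass. GNPDA1 was at 85.8 ± 23.6 CPM (SD, n = 4 libraries), with a log2 difference of 0.64 ± 0.22 (SE, edgeR adjusted p = 0.111), and did not pass either. Groups did not overlap for OGT and UAP1, 2 of 8 members, beside 13.6% of all genes. The OGT call was lost without controls 1 and 2, at 0.81 (edgeR adjusted p = 0.0682), and over the 8 libraries with a genotype field that matches the title, at 1.11 (edgeR adjusted p = 0.0518). Without controls 3 and 4 the OGT difference was 1.05 (edgeR adjusted p = 0.0123). UAP1 passed without KO_RES 2_1 (-0.60, edgeR adjusted p = 0.0404), and GNPDA1 passed without KO_RES 2_2 (0.81, edgeR adjusted p = 0.0320).

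Taken by line, the rescue of line 1 differed from control in 3 of 8 members, where 18.2% of genes were called. OGT was higher by 0.80 ± 0.16 on the log2 scale (SE, edgeR adjusted p = 0.00568), GNPDA1 was higher by 0.92 ± 0.19 (SE, edgeR adjusted p = 0.00749) and UAP1 differed by -0.68 ± 0.15 (SE, edgeR adjusted p = 0.0104). Leaving out 1 of the arm's 2 libraries, with the other assumed to vary like the other groups, ended each call at least once. OGT was lost without KO_RES 1_2 (0.58, edgeR adjusted p = 0.0956), GNPDA1 without KO_RES 1_1 (0.84, edgeR adjusted p = 0.0768), and UAP1 without KO_RES 1_1 (-0.70, edgeR adjusted p = 0.0727) or KO_RES 1_2 (-0.66, edgeR adjusted p = 0.0880). In the rescue of line 2, OGT was the 1 member called, at 1.03 ± 0.15 (SE, edgeR adjusted p = 0.00278), beside 9.62% of genes, and it passed without each library in turn. UAP1 was at -0.34 ± 0.14 (SE, edgeR adjusted p = 0.171) and GNPDA1 at 0.30 ± 0.19 (SE, edgeR adjusted p = 0.361) in that line, and neither passed.

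**Figure D3:**
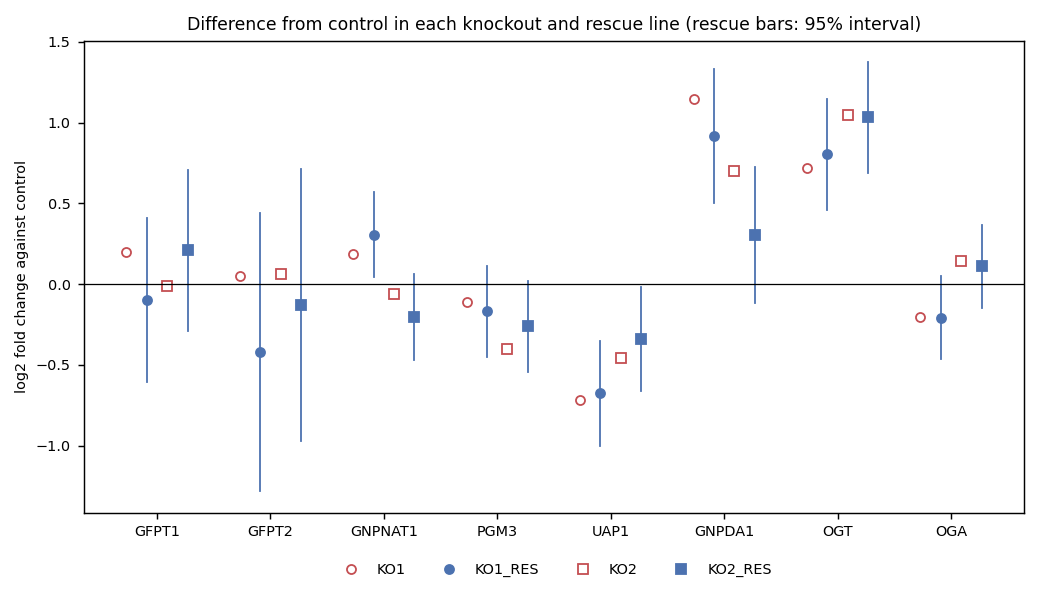
Log2 fold change against control (y axis) of each of the 8 genes (x axis) in the knockout (open markers) and rescue (filled markers) of line 1 (circles) and line 2 (squares), with 95% intervals for the rescue lines. OGT lies between 0.72 and 1.05 in all 4 arms and UAP1 between -0.72 and -0.34, while GNPDA1 spans 0.30 to 1.15.

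The 2 knockout lines were then compared with each other, which needs no control. No member was called, where 12% of genes were. OGA, the hydrolase that removes O-GlcNAc, came nearest, at 112 and 103 CPM in KO 1_1 and 1_2 and 145 and 129 CPM in KO 2_1 and 2_2, a log2 difference of 0.35 ± 0.13 (SE, edgeR adjusted p = 0.129). The rescue libraries kept that order, with 111 and 104 CPM in line 1 and 137 and 132 CPM in line 2. Across the 4 libraries of each line, OGA and UAP1 were higher in line 2 and GNPNAT1 was lower, without overlap, and 32.5% of all genes were separated in this way. For OGT the difference between the knockout lines was 0.33 ± 0.18 (SE, edgeR adjusted p = 0.296), and for GNPDA1 it was -0.45 ± 0.22 (SE, edgeR adjusted p = 0.236).

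The difference from control was then set beside that of the genes around each member, 10 tested genes on each side in GENCODE 29 order, a description chosen after the data were seen. OGT's 20 neighbours on the X chromosome had a median log2 difference of -0.21 in KO line 1, where OGT was at 0.72, and 0.59 in KO line 2, where OGT was at 1.05. In line 2, 19 of these 20 neighbours were above 0, and the median of 635 X-linked genes was 0.33. OGA's neighbours on chromosome 10 had a median of -0.50 in KO line 1, with 0 of 20 above 0, and 0.04 in KO line 2, and OGA itself was at -0.21 and 0.14. GNPDA1's neighbours on chromosome 5 had a median of 0.44 in KO line 1 and -0.06 in KO line 2, below GNPDA1 at 1.15 and 0.70. The neighbours of UAP1 were at -0.23 and -0.08, against -0.72 and -0.46 for UAP1. Whether copy number differs between these cells was not tested.

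Libraries numbered 2 were compared with those numbered 1 within each line and group, because the genotype field divides the knockout and rescue libraries by this number. GFPT1, the enzyme of the committed step, was higher in number 2 in 4 of 4 comparisons: 519 against 418 CPM in KO line 1, 468 against 295 CPM in its rescue, 437 against 374 CPM in KO line 2 and 594 against 354 CPM in its rescue. The log2 difference was 0.48 ± 0.13 (SE, edgeR adjusted p = 0.0374). GNPDA1, which works in the opposite direction, was lower in number 2 in 4 of 4 comparisons, at -0.32 ± 0.09 (SE, edgeR adjusted p = 0.0495). These were 2 of 8 members called, where 14.2% of 19766 genes were. In controls, the range of GFPT1 was 357 to 456 CPM. KO_RES 1_1 lay below it and KO_RES 2_1, at 354 CPM, just below it, while KO 1_2, KO_RES 1_2 and KO_RES 2_2 lay above it. Knockout and rescue libraries of the same line and number vary together, with correlations of 0.710 to 0.773, so the 4 comparisons are not independent of each other. The fit treats them as independent, and its p-values may be too small.

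Both calls were close to the threshold. GFPT1 was lost in 5 of 12 alternatives: without KO_RES 1_1 (0.36, edgeR adjusted p = 0.135), KO 1_2 (0.46, adjusted p = 0.129), KO_RES 1_2 (0.48, adjusted p = 0.0588), KO 2_1 (0.47, adjusted p = 0.120) or KO_RES 2_1 (0.47, adjusted p = 0.144). GNPDA1 was lost in 8 of 12, namely with RLE scaling (adjusted p = 0.0577), with unstranded counts (adjusted p = 0.0526) and without any 1 of KO_RES 1_1, KO 1_2, KO 2_1, KO_RES 2_1, KO 2_2 or KO_RES 2_2 (edgeR adjusted p from 0.0566 to 0.195). GFPT2 was also higher in number 2 in 4 of 4 comparisons, at 0.60 ± 0.20 (SE, edgeR adjusted p = 0.0655), and passed without KO 1_1 (edgeR adjusted p = 0.0160). UAP1, at -0.20 ± 0.07 (SE, edgeR adjusted p = 0.0817), and OGA, at -0.13 ± 0.06 (SE, edgeR adjusted p = 0.203), were lower in 4 of 4, and did not pass. For comparison, 21.0% of all genes were higher and 21.6% lower in number 2 in every comparison. OGT was higher in 3 of 4, by 0.25 ± 0.09 (SE, edgeR adjusted p = 0.0912), which is less than its difference between rescue and control.

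**Figure D4:**
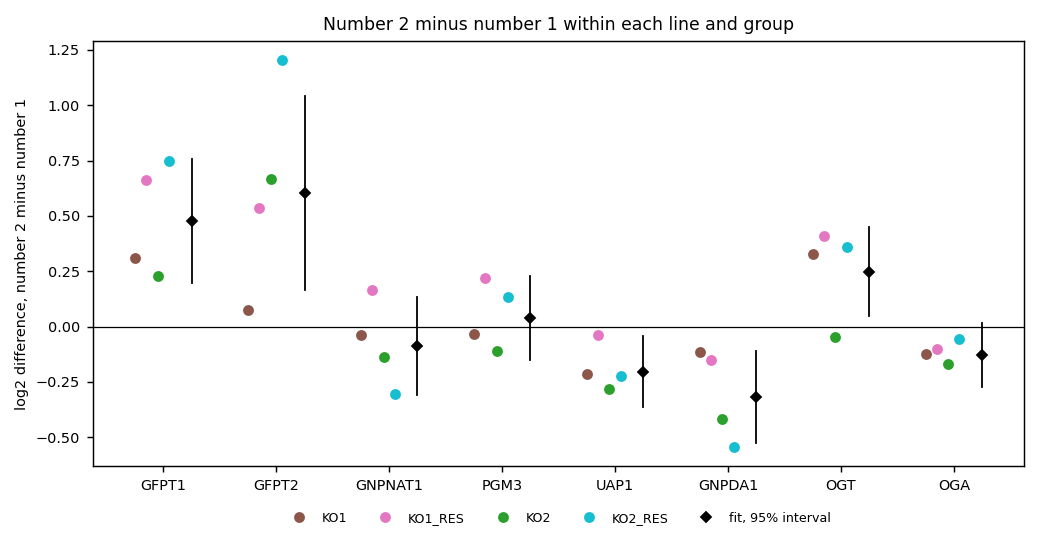
Log2 difference of CPM, number 2 minus number 1 (y axis), for each of the 8 genes (x axis) within each line and group (coloured points), with the fitted estimate and its 95% interval (black). GFPT1 and GFPT2 lie above 0 in all 4 comparisons, and UAP1, GNPDA1 and OGA below 0.

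Around the pathway, 59 genes of 6 related lists were examined, of which 58 were tested. In knockout against control 2 of them rose and 4 fell by edgeR, beside 6.28% of all genes called, with a median log2 difference of -0.02 beside 0.01 over all genes. In rescue against control 3 rose, HKDC1 itself among them, and 4 fell, beside 5.47% of all genes called, with a median of 0.03 beside 0.02. Rescue against knockout had 0 of 58 called by edgeR, 2 with an unadjusted p under 0.05 and 1 called by DESeq2. Both comparisons with control share the control libraries.

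In the list of UDP-GlcNAc salvage and interconversion, 1 of 10 genes rose and 1 fell in knockout, and both are paralogs of members. UAP1L1, a relative of UAP1, was at 12.7, 13.7, 7.29 and 6.68 CPM in controls 1 to 4 and at 33.1, 30.8, 21.2 and 19.4 CPM in KO 1_1, 1_2, 2_1 and 2_2. The log2 difference was 1.37 ± 0.33 (SE, edgeR adjusted p = 0.0329), opposite to that of UAP1. In rescue libraries UAP1L1 was at 34.8, 34.4, 15.6 and 18.1 CPM, a log2 difference from control of 1.35 ± 0.33 (SE, edgeR adjusted p = 0.0370). GNPDA2, a deaminase like GNPDA1, was at 28.3 to 33.9 CPM in controls, 19.9 to 23.7 CPM in knockout and 18.4 to 24.5 CPM in rescue libraries, again opposite to its paralog. Its log2 difference was -0.49 ± 0.12 (SE, edgeR adjusted p = 0.0304) in knockout and -0.55 ± 0.12 (SE, edgeR adjusted p = 0.02) in rescue. The sense strand alone was counted, and antisense reads at GNPDA2 were 16.5% to 28.2% of the reads of both strands.

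The ratio of UAP1L1 to UAP1 was 0.0574 to 0.142 in controls, 0.245 to 0.504 in knockout and 0.169 to 0.514 in rescue libraries, without overlap between controls and the rest. Summed over both genes, the level per length was 33.4 ± 3.31 CPM per kilobase in controls, 26.0 ± 2.56 in knockout and 27.2 ± 1.76 in rescue libraries (SD, n = 4 libraries each), and no knockout or rescue library reached the lowest control. The ratio of GNPDA1 to GNPDA2 was 1.39 to 2.02 in controls, 3.85 to 5.35 in knockout and 3.01 to 4.97 in rescue libraries. Their sum was 18.2 ± 2.45 CPM per kilobase in controls, 29.8 ± 5.79 in knockout and 24.7 ± 6.25 in rescue libraries (SD, n = 4 libraries each). These 2 pairs were chosen after their values were seen. Both calls in knockout were close to the threshold: UAP1L1 was lost without any 1 control library or any 1 of KO 1_1, KO 1_2 and KO 2_1 (edgeR adjusted p from 0.0518 to 0.0892) and without controls 3 and 4 (0.98, adjusted p = 0.158), and GNPDA2 without any 1 of controls 2, 3 and 4 or any 1 knockout library (edgeR adjusted p from 0.0602 to 0.0778). In rescue against control, UAP1L1 was lost without any 1 control library or any 1 of KO_RES 1_1, KO_RES 1_2 and KO 1_2 (edgeR adjusted p from 0.0504 to 0.104) and without controls 3 and 4 (0.96, edgeR adjusted p = 0.171). GNPDA2 was lost there without control 3 (-0.51, edgeR adjusted p = 0.0505) or control 4 (-0.51, edgeR adjusted p = 0.0541).

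**Figure D5:**
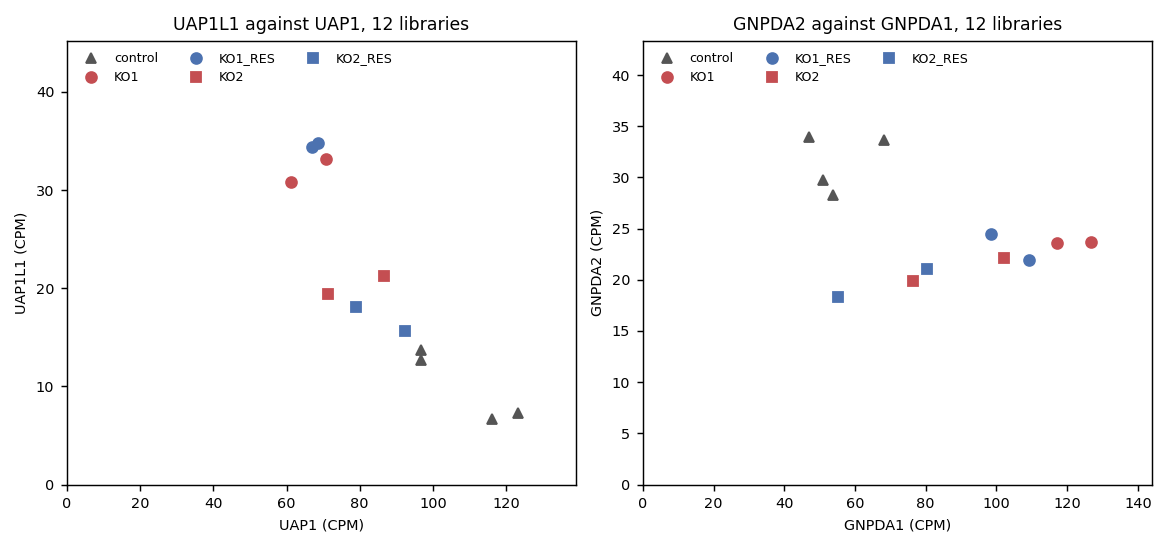
CPM of UAP1L1 against CPM of UAP1 (left) and of GNPDA2 against GNPDA1 (right) in the 12 libraries, by control (triangles), line 1 (circles) and line 2 (squares), knockout in red and rescue in blue. Control libraries lie at high UAP1 and low UAP1L1, and at low GNPDA1 and high GNPDA2.

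In the list of GlcNAc transferases, transporters and N-glycan entry, 3 of 17 genes fell in knockout and 0 rose, where 6.28% of all genes were called in either direction. SLC35A3, the transporter that takes UDP-GlcNAc into the Golgi, was at 52.9 to 60.5 CPM in controls, 34.9 to 41.5 CPM in knockout and 33.6 to 41.7 CPM in rescue libraries. It differed from control by -0.59 ± 0.10 on the log2 scale in knockout (SE, edgeR adjusted p = 0.00621) and by -0.59 ± 0.10 in rescue (SE, edgeR adjusted p = 0.00722). EXT1, a heparan sulfate polymerase, was at -0.48 ± 0.10 (SE, edgeR adjusted p = 0.0156), and was lost without KO 1_2 (-0.47, adjusted p = 0.0521). MGAT4A, an N-glycan branching enzyme, was at -0.42 ± 0.10 (SE, edgeR adjusted p = 0.0373), and was lost without any 1 of 8 libraries, controls 1 and 2 and each knockout library among them (edgeR adjusted p from 0.0519 to 0.114). Without controls 1 and 2, SLC35A3 (edgeR adjusted p = 0.0791 in knockout and 0.0851 in rescue), EXT1 (adjusted p = 0.102) and MGAT4A (adjusted p = 0.328) did not pass, and MGAT4A was at -0.22.

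Over the 8 libraries with matching label fields none of the 6 related genes was called in knockout against control, where 0.36% of all genes were. No gene of the sialic acid, hyaluronan and hexosaminidase lists, with 5, 2 and 6 tested genes, was called in knockout against control. By line, GNE, the first enzyme of sialic acid synthesis from UDP-GlcNAc, was at 56.3 and 63.3 CPM in KO line 2 against 109 to 135 CPM in controls (-1.04 ± 0.15, SE, edgeR adjusted p = 0.00207), where 10% of genes were called. It was at 112 and 113 CPM in KO line 1, and the difference between the lines was -0.91 ± 0.16 (SE, edgeR adjusted p = 0.00595, 0.0653 without KO 2_1). HAS2, which builds hyaluronan from UDP-GlcNAc, was at 2.59 to 5.01 CPM in the 4 libraries of line 2 and at 0 to 0.0566 CPM, at most 3 counts, in the other 8. HAS2 passed the filter on low counts through line 2, where it is high, so no test is given. ALG13, which adds the next GlcNAc in N-glycan synthesis and like OGT lies on the X chromosome, was at 67.9 to 78.4 CPM in line 2 and 41.2 to 47.1 CPM in the other libraries, controls included, with a difference between the knockout lines of 0.76 ± 0.11 (SE, edgeR adjusted p = 0.00217).

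Genes whose pattern over the 12 libraries was most like a member were sought among 10952 genes with a mean of at least 5 CPM, as a description with no test. The libraries share lines and numbers, so the points are not independent. For OGT these were AGO1, an Argonaute protein of small RNA silencing (Pearson r of log2 CPM 0.96), PEAK1 (0.96), PPFIA1 (0.96), TMLHE (0.96) and SHFL (0.96). For UAP1 they were CYRIB (0.98), PHACTR2 (0.97), LAPTM4B (0.96), ENTPD6 (0.96) and YTHDF3 (0.95), of which CYRIB, LAPTM4B and YTHDF3 lie on chromosome 8, as does EXT1. For GNPDA1 they were ZNF271P (0.98), a pseudogene whose reads may be shared with its relatives, ETF1 (0.98), a translation termination factor, and HPS5 (0.98), and for GNPNAT1 they were IMMT (0.97), MDH1 (0.97) and NDUFB5 (0.96), which encode 2 mitochondrial proteins and a cytosolic malate dehydrogenase. TMLHE lies on the X chromosome like OGT, and ETF1 on chromosome 5 like GNPDA1. GFPT1 was most like SNPH (0.94), CLIP2 (0.94) and CLGN (0.94), PGM3 like BET1 (0.95), GOLT1B (0.94) and MAN2B1 (0.93), OGA like KPTN (0.93), NASP (0.93) and PHTF2 (0.92), and GFPT2 like KDM5B (0.89) and PPP4R1L (0.86). Between members, OGT had r = -0.70 with PGM3, -0.65 with UAP1, 0.52 with GNPDA1 and 0.01 with OGA. OGT and UAP1 were chosen for opposite differences in knockout, which bears on the value between them.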

How the data were processed

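RNA from 12 libraries of PLC/PRF/5 cells was sequenced, and the authors deposited 1 table of raw read counts per gene and library, made with STAR 2.6.0b on GRCh37 per the submitters' processing notes. The strand with the larger total was used. The 4 lines of unassigned reads were left out, and 0 columns of other samples were present. Reads in no gene and ambiguous reads made up 15.3% to 24.0% of their sum with the gene counts. Groups follow the titles. The genotype field gives another group for the knockout libraries of number 2 and the rescue libraries of number 1, 4 in all.

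Counts were filtered with filterByExpr, scaled by TMM and fitted with the quasi-likelihood test of edgeR 4.0.16 (R 4.3.3, limma 3.58.1), and p-values were adjusted by Benjamini-Hochberg over all genes, with calls at 0.05. One fit held 3 groups (19200 genes, biological coefficient of variation 36.2%), one 5 groups of line and treatment (20559 genes, 25.8%) and one compared number 2 with number 1 within line and group (19766 genes, 14.2%). The fits recovered known large changes in simulated counts. Those counts varied less than the libraries in the fits of 3 and 5 groups and held no lines or pairs. The rate of false calls in these data was therefore not measured. Depth was 36075411 to 71853616 counts, so that 3 counts, the floor used, equal 0.0418 to 0.0832 CPM (counting error only). Knockout and rescue libraries of the same line and number were taken as pairs: lines are labelled, and each pair's deviations from the group means correlated at 0.710 to 0.773, the highest value for each library. No pair of libraries of a group agreed within sampling noise.

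The members and the lists of related genes were chosen with earlier results of these data known. All 8 members are named, up to 4 called genes per related list, and the 5 genes most like OGT and UAP1 and the 3 most like each other member. Some genes that this rule names are not reported here. GNE and ALG13 were called between the knockout lines by edgeR, and HAS2 is given by its levels only, with no test. Neighbouring genes and paralog ratios were added after the data were seen. Promoters came from RefSeq (GRCh38.p14), and exon lengths from GENCODE 29. The alternatives tried were unstranded counts, RLE scaling, the DESeq2 1.42.0 test, leaving out the filter, other sets of libraries or groups, replicate blocks, and leaving out each library or a pair of controls.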

Additional observations from a re-analysis of the deposited data

How the results depend on the processing

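Some log2 differences that passed no test changed sign, among them that of GFPT2. The genotype field calls number 1 knockout and number 2 rescue, so rescue against knockout by that field compares number 2 with number 1. Where the fields match, knockout libraries are all of number 1 and rescue libraries of number 2, so rescue and number cannot be told apart. The cause of the other changes was not tested. For rescue against knockout, groups taken from the genotype field gave 0.49 for GFPT1, -0.058 for GNPNAT1, -0.19 for UAP1 and 0.60 for GFPT2, and the 8 libraries with matching fields gave 0.43, -0.033, -0.099 and 0.26. GNPNAT1 was at -0.024 with unstranded counts and -0.011 with the mean of both lines. With the pair as a replicate block it was at -0.0087, and with line alone as a block at -0.0035, and neither block changed a member's call. For rescue against control, OGA was at 0.066 without controls 1 and 2, GFPT1 at -0.042 and GNPNAT1 at -0.0023 without controls 3 and 4, and GFPT2 at 0.17 by the genotype field and 0.12 with matching fields.

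Leaving out 1 library at a time moved rescue against knockout from -0.068 to 0.13 for OGT, -0.091 to 0.076 for OGA, -0.22 to 0.11 for GFPT1, -0.11 to 0.14 for GNPNAT1, -0.024 to 0.093 for PGM3 and -0.017 to 0.18 for UAP1. It moved rescue against control from -0.11 to 0.029 for OGA, -0.13 to 0.21 for GFPT1 and -0.045 to 0.20 for GNPNAT1. GNPDA1 in line 2 rescue against control ranged from -0.023 to 0.55, GFPT2 between the knockout lines from -0.36 to 0.32, and GFPT1 in rescue against knockout from -0.66 to 0.0076 in line 1 and -0.20 to 0.52 in line 2. The difference between the lines' rescue effects ranged from -0.49 to 0.083 for GNPDA1, and number 2 against number 1 from -0.20 to 0.0044 for GNPNAT1 and -0.039 to 0.095 for PGM3.

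Members called in rescue against control numbered 1, against 2 by DESeq2 and by the genotype field, 0 with matching fields, 3 with the mean of both lines, 0 without controls 1 and 2, and 1 to 2 without each library. UAP1 was called by DESeq2 and by the genotype field. Line 1 rescue had 1 to 3 without each library. Number 2 against number 1 had 2, with 1 under RLE scaling and 1 with unstranded counts, and 0 to 3 without each library. Of the related genes, 6 were called in knockout, against 10 by DESeq2, 14 with the mean of both lines, 0 with matching fields, 1 without controls 1 and 2, and 2 to 6 without each library. In rescue against control 7 were called, against 11, 14, 1 and 1 under the same settings, 4 with only the groups compared and 4 to 7 without each library. Of all genes, 12.2% were called in knockout and 11.1% in rescue against control by DESeq2, and 16.1% and 15.4% with the mean of both lines. With matching fields these shares were 0.36% and 0.32%, and without controls 1 and 2 they were 1.67% and 1.91%. For rescue against knockout 1 gene was called instead of 0 by DESeq2, both blocks, the mean of both lines and no filter. For the number 7 were called, against 13 by DESeq2, 11 with no filter and 0 to 13 without each library.

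Over all genes, calls in knockout and in rescue against control, 1206 and 1050, were 2346 and 2122 by DESeq2, 1883 and 1874 by the genotype field, 72 and 64 with matching fields, 3312 and 3171 with the mean of both lines, 337 and 384 without controls 1 and 2, and 509 to 1506 and 471 to 1138 without each library. Rescue against control had 533 with only the groups compared. Against control, line 2 had 2062 in knockout and 1977 in rescue, which became 3134 and 3112 by DESeq2, 3385 and 3551 with no filter, 3886 and 3856 without controls 3 and 4, and 530 to 2331 and 780 to 2102 without each library. Rescue of line 1 against control had 3741, with 1333 to 4141, the knockout lines 2464, with 854 to 2775, and the number 2815, with 86 to 4268. Rescue against knockout had 0, against 6 by DESeq2, 1 with no filter, 2 with the mean of both lines, 8 with the pair block and 3 with the line block. By line it had 40 and 1, against 217 and 2 by DESeq2, 548 and 41 with no filter, and 1 to 40 and 0 to 1 without each library. The difference between the lines' rescue effects had 0, against 33 by DESeq2 and 192 with no filter.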
